A study of Mus musculus with 14 samples.

Results

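*Id1*, *Id2*, *Id3*, *Id4*, *Msx1* and *Msx2* are 6 genes whose transcripts are widely used as readouts of BMP signal transduction. They were taken from the counts by an exact match of the gene symbol, and make up 6 of the 23284 symbols counted in mouse forelimb buds. Buds were taken at 30 somites (E10.0) or 35 somites (E10.5), with 3 wild-type and 4 *Smad4*Δ/Δc samples at each stage. All embryos were of the NMRI strain and carried a single copy of the PrxCre transgene (PrxCreT/+), also those called wild type, whose *Smad4* genotype was +/+. The mutants had a constitutive null allele (Δ) together with a floxed allele that the CRE recombinase inactivates (Δc). The *Prrx1* regulatory sequence drives CRE in limb bud mesenchyme and not in the ectoderm that covers it, so that ectoderm, blood vessels and other cells in a mutant bud keep a *Smad4* allele. Each replicate is the pair of forelimb buds of 1 embryo.

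BMP ligands bind receptor kinases that phosphorylate SMAD1, SMAD5 and SMAD9, and these join SMAD4 to enter the nucleus and activate transcription. The ID proteins are helix-loop-helix factors without a DNA-binding region, which bind E proteins and keep them and their bHLH partners off DNA. MSX1 and MSX2 are homeodomain repressors expressed in limb bud mesenchyme and in the apical ectodermal ridge, and the corresponding genes act redundantly in limb bud patterning.

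In mutants, *Id1*, *Id2*, *Id3* and *Msx2* were downregulated at both stages, and *Id4* at E10.5. *Id1* and *Id3* had 42.4% of the wild-type mean at E10.0, and 39.9% and 38.5% of it at E10.5. *Id2*, the most abundant of the 6, kept 75.2% and 64.1%. *Msx2* had 48.1% at E10.0 and 31.8% at the later stage. The *Msx1* levels of the genotypes, normalized to library size, overlapped at both stages. Calls of DEGs required FDR≤0.1 and a fold change ≥1.2 by edgeR's exact test, and adjusted *P*-values are Benjamini-Hochberg FDRs of that test unless stated. At E10.0, 4 of the 6 genes were called lower, where 3.28% of the 12393 genes tested were, and 0 were called higher (3.33% of all genes). At E10.5, 5 of the 6 were called lower, against 1.54% of all genes, and 0 higher (2.19%). The quasi-likelihood test of edgeR and DESeq2 also called 0 of them higher at either stage, and 0 were higher at an unadjusted *P* under 0.05. For *Id1*, *Id2*, *Id3* and *Msx2* the quasi-likelihood test gave larger adjusted *P*-values than the exact test at both stages. By edgeR's quasi-likelihood test they were 0.000572 (E10.0) and 0.000266 (E10.5) for *Id1*, and 0.0458 and 0.00289 for *Id2*. In 5 of the 6 genes no mutant embryo reached the lowest wild-type embryo, at either stage. Such a gap was found in 9.78% of all genes tested at E10.0 and in 6.40% at E10.5.

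The start regions of *Id3* and *Msx2*, which fell by more than 2-fold, and of *Id2*, which fell less, are printed here because the sequence around a start site is where the short elements contacted by SMAD proteins can be read. They are RefSeq promoters of GRCm38.p6, from 250 bases before to 50 bases after the start of the gene, each read 5′ to 3′ on the strand of the gene. GRCm38.p6 is not the build of the counts (mm9), so that these positions are not those of the counted genes. Capitals mark GTCT or its reverse complement AGAC, the core contacted by SMAD4, and GGCGCC, a GC-rich core bound by SMADs of the BMP branch. Both strands were searched, and these elements cannot overlap each other.
*Id3*, GRCm38.p6 chr4:136143572-136143871, plus strand: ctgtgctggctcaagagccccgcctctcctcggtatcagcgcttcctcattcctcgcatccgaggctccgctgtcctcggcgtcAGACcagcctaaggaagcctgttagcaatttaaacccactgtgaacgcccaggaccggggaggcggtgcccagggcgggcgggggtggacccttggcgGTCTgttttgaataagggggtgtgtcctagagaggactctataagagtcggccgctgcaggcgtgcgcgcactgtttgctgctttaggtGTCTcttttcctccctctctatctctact
*Msx2*, GRCm38.p6 chr13:53472731-53473030, minus strand: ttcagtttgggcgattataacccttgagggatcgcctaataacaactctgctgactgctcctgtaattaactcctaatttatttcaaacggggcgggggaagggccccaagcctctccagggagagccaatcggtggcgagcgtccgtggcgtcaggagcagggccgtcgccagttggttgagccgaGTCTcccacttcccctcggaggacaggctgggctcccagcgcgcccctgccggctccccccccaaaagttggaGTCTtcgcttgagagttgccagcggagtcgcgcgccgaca
*Id2*, GRCm38.p6 chr12:25096043-25096342, minus strand: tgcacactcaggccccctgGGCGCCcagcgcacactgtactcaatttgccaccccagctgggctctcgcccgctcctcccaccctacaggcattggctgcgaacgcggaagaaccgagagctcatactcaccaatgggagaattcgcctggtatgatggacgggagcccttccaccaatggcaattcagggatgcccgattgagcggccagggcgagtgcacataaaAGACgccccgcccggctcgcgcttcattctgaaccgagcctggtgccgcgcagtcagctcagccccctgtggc
The *Id3* window holds 3 copies of GTCT or AGAC and 0 of GGCGCC, the *Msx2* window 2 and 0, and the *Id2* window 1 and 1. Of 32851 promoters of this length, 88.0% hold GTCT or AGAC and 11.9% hold GGCGCC. The windows of *Id4* and *Msx1* hold 0 copies of GTCT or AGAC, and the *Id4* window holds 1 copy of GGCGCC. A match is a description of letters, and no match says nothing of enhancers elsewhere. *Id1* had no entry among these promoters.

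*Smad4*, checked first, had 152 to 169 CPM (TMM-normalized counts scaled by library size) in the 3 wild-type embryos at E10.0 and 36.9 to 45.98 CPM in the 4 mutants. At E10.5 it had 163 to 167 CPM (wild type) and 32.9 to 40.7 CPM (mutants). Every library thus matched the genotype of its label. *Smad4* was not called between the stages in either genotype, so that it does not check the stage. Between 34066930 and 61691258 reads per sample lay on genes, so that *Id1*, *Id2*, *Id3* and *Msx2* were measured with 411 to 8569 reads per embryo, *Msx1* with 83 to 367 and *Id4* with 25 to 116. Mutant replicates 4 and 5 of both stages stood apart, with 1.72% to 8.05% of their reads on the ribosomal RNA precursor *Rn45s* against 0.151% to 0.478% in the others. No wild-type library had such a share, nor had the other 2 mutants of each stage. With only the replicates numbered 1 to 3, which leaves out these mutants, *Id1*, *Id2*, *Id3* and *Msx2* were called lower at both stages. The log2 fold changes were then -1.11 for *Id1*, -0.34 for *Id2*, -1.33 for *Id3* and -0.85 for *Msx2* at E10.0, and -1.35, -0.64, -1.48 and -1.80 at the later stage. All 8 markers of limb mesenchyme were present, and 4 were called lower in mutants at E10.0, and 3 lower and 1 higher at E10.5. Their summed level was 1638 to 1855 CPM (wild type) and 1466 to 1652 CPM (mutants) at E10.0, and 1839 to 1994 and 1639 to 1847 CPM at E10.5. In pooled tissue, fewer expressing cells and less RNA per cell cannot be told apart.

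*Id1* (mm9 chromosome 2, 152561987 to 152563146, plus strand) encodes an inhibitor of E proteins and is among the most direct BMP targets known. At E10.0, the 3 wild-type embryos measured 33.0, 49.5 and 37.9 CPM, whereas mutant replicates 1, 3, 4 and 5 measured 14.4, 22.4, 16.8 and 14.6 CPM. Wild type averaged 40.1 ± 8.45 CPM (SD, n=3), against 17.0 ± 3.72 CPM for mutants (SD, n=4). The groups were separated by a wide gap, and the spread was largest among wild-type embryos. The log2 fold change was -1.24 ± 0.226 (SE, adjusted *P*=4.63e-14 in edgeR). At E10.5, wild-type embryos had 35.3, 37.2 and 32.3 CPM, whereas mutant replicates 1, 2, 4 and 5 measured 13.5, 13.7, 14.1 and 14.5 CPM. The mutants lay within 1 CPM of each other, at 13.9 ± 0.438 CPM (SD, n=4) against 35.0 ± 2.49 CPM in wild type (SD, n=3). This was a log2 fold change of -1.33 ± 0.064 (SE, adjusted *P*=5.48e-16 in edgeR).

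*Id3* (mm9 chromosome 4, 135699412 to 135701670, plus strand), a close relative of *Id1*, was reduced by a like factor from a higher level. The 3 wild-type embryos measured 66.6, 107 and 75.1 CPM at E10.0, compared with values for mutant replicates 1, 3, 4 and 5 of 22.4, 42.8, 42.3 and 33.4 CPM. The lowest wild-type embryo was still above the highest mutant. Means were 83.0 ± 21.5 (SD, n=3) and 35.2 ± 9.61 CPM (SD, n=4), a log2 fold change of -1.24 ± 0.301 (SE, adjusted *P*=1.53e-07 in edgeR). At E10.5, the wild-type values were 66.9, 61.3 and 45.1 CPM and those of mutant replicates 1, 2, 4 and 5 were 17.2, 23.9, 25.1 and 22.8 CPM. Mutant replicate 1 was the lowest of its group at both stages. At this stage the log2 fold change was -1.38 ± 0.212 (SE, adjusted *P*=1.76e-09 in edgeR). The ratio of *Id3* to *Id1* reads ranged from 1.98 to 2.17 in wild type and from 1.56 to 2.52 in mutants at E10.0, and from 1.40 to 1.89 and 1.27 to 1.79 at E10.5. This ratio, which does not depend on the normalization between libraries, overlapped between the genotypes at both stages.

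*Id2* (mm9 chromosome 12, 25778666 to 25780957, minus strand) had the smallest fold changes among the genes called at both stages. The wild-type embryos had 133, 175 and 142 CPM at E10.0, and mutant replicates 1, 3, 4 and 5 measured 106, 127, 117 and 101 CPM. No mutant reached the lowest wild-type embryo, although only 5.53 CPM lay between wild-type replicate 1 and mutant replicate 3. The log2 fold change was -0.41 ± 0.142 (SE, adjusted *P*=0.00463 in edgeR). Without wild-type replicate 2, the highest embryo, it was -0.28 and *Id2* was no longer called (adjusted *P*=0.123 in edgeR). At E10.5, wild-type embryos had 129, 156 and 142 CPM, whereas mutant replicates 1, 2, 4 and 5 measured 90.0, 91.3, 87.3 and 95.8 CPM. The groups were again separated, with means of 142 ± 13.5 (SD, n=3) and 91.1 ± 3.54 CPM (SD, n=4). This gave a log2 fold change of -0.64 ± 0.0838 (SE, adjusted *P*=1.81e-07 in edgeR), and *Id2* was called in all 14 leave-one-out fits.

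*Id4* (mm9 chromosome 13, 48356796 to 48359405, plus strand), best known from the nervous system, was the least abundant member. At E10.0, wild-type embryos had 1.15, 1.55 and 1.25 CPM, whereas mutant replicates 1, 3, 4 and 5 measured 0.907, 0.796, 1.09 and 0.713 CPM. The groups did not overlap, but the log2 fold change of -0.59 ± 0.184 (SE) did not pass the threshold (adjusted *P*=0.152 in edgeR). It passed without mutant replicate 4 of that stage (log2 fold change -0.70, adjusted *P*=0.0828 in edgeR). At E10.5, wild-type embryos had 1.85, 2.28 and 1.55 CPM, whereas mutant replicates 1, 2, 4 and 5 measured 1.16, 1.03, 0.736 and 0.814 CPM. *Id4* was then called lower, with a log2 fold change of -0.99 ± 0.219 (SE, adjusted *P*=0.00157 in edgeR). Mutant replicates 4 and 5, with the high share of *Rn45s*, were the lowest, and with only the replicates numbered 1 to 3 the log2 fold change was -0.78 and did not pass the threshold (adjusted *P*=0.101 in edgeR).

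**Figure D1:**
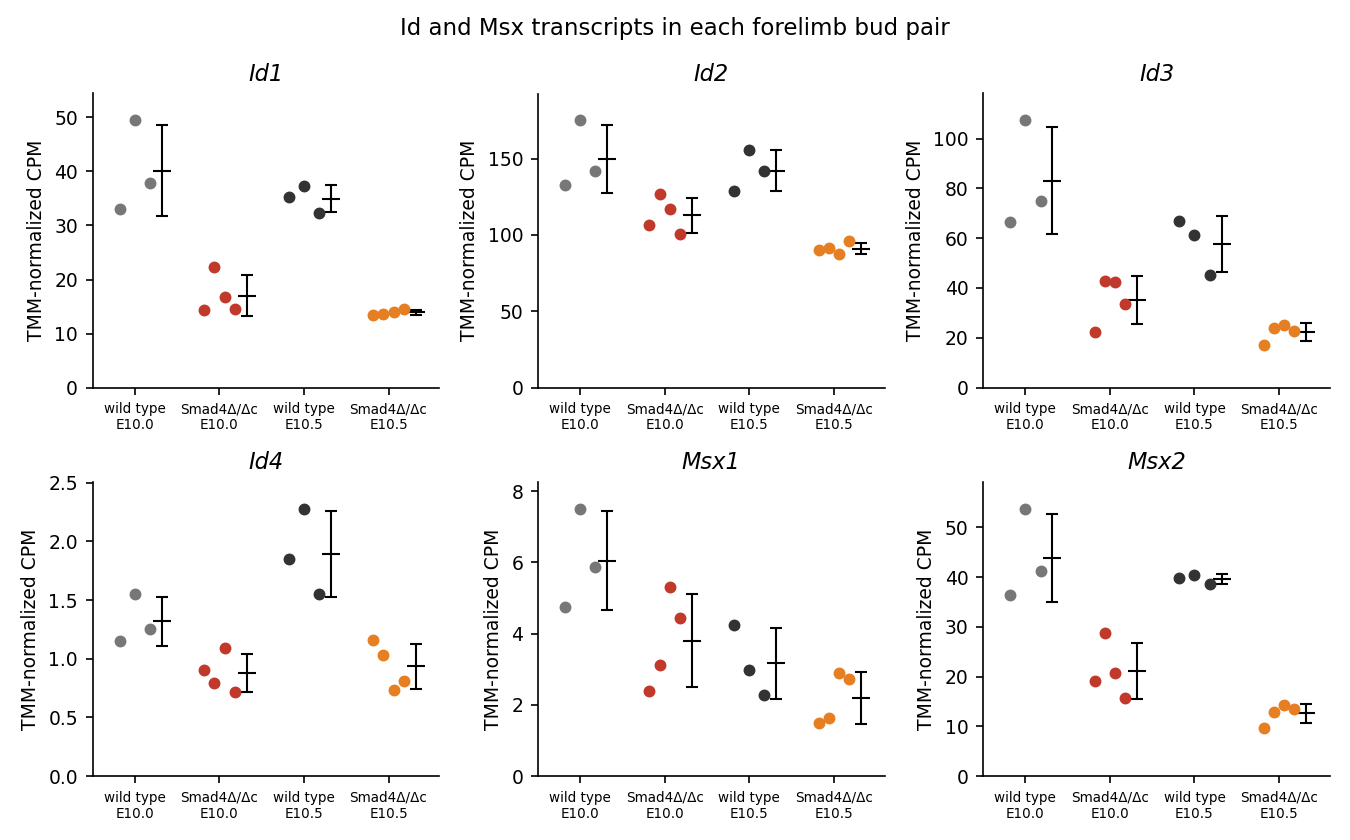
Expression of the 6 genes in each sample, in TMM-normalized CPM on a linear axis from 0, by genotype and stage. Each point is the forelimb bud pair of 1 embryo in the order of replicate numbers, and bars show the mean and SD of 3 wild-type or 4 mutant embryos. The mutant points lie below all wild-type points of their stage for *Id1*, *Id2*, *Id3*, *Id4* and *Msx2*, whereas those of *Msx1* overlap.

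*Msx2* (mm9 chromosome 13, 53562250 to 53568443, minus strand) encodes a homeodomain repressor with a well studied BMP-responsive enhancer. In wild type, the 3 embryos had 36.5, 53.7 and 41.3 CPM at E10.0 and 39.8, 40.4 and 38.5 CPM at E10.5. Mutant replicates 1, 3, 4 and 5 measured 19.2, 28.8, 20.6 and 15.6 CPM at E10.0, and mutant replicates 1, 2, 4 and 5 measured 9.74, 12.8, 14.4 and 13.4 CPM at E10.5. No mutant of the later stage reached any mutant of the earlier stage. The log2 fold change between the genotypes was -1.05 ± 0.247 at E10.0 (SE, adjusted *P*=2.00e-07 in edgeR). At E10.5 it was -1.66 ± 0.124 (SE, adjusted *P*=2.09e-18 in edgeR), the largest genotype difference among the 6 genes. The ratio of *Msx2* to *Id1* reads ranged from 1.086 to 1.105 in wild type and from 1.07 to 1.33 in mutants at E10.0. At E10.5 it was 1.08 to 1.19 in wild type and 0.722 to 1.02 in mutants, where the groups no longer overlapped.

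*Msx1* (mm9 chromosome 5, 38211724 to 38215822, minus strand) is the related gene whose protein shares targets with MSX2. Its measurement is limited because the antisense transcript *Msx1as* (*Msx1os* in RefSeq) lies with 100% of its span inside *Msx1*. The libraries were unstranded and reads that overlap several genes were not counted, so that *Msx1* reads from stretches where exons of both overlap were left out, and reads of the 2 strands cannot be told apart. Wild-type embryos had 4.75, 7.504 and 5.88 CPM of *Msx1* at E10.0, and mutant replicates 1, 3, 4 and 5 measured 2.38, 3.12, 5.30 and 4.43 CPM. Mutant replicate 4 thus lay above wild-type replicate 1. The log2 fold change of -0.67 ± 0.321 (SE) was not called (adjusted *P*=0.167 in edgeR). Without mutant replicate 4 it was -0.87 and *Msx1* was called (adjusted *P*=0.0530 in edgeR). At E10.5, wild-type embryos had 4.23, 2.99 and 2.28 CPM, whereas mutant replicates 1, 2, 4 and 5 measured 1.49, 1.62, 2.89 and 2.74 CPM, again with overlap. The log2 fold change was -0.55 ± 0.358 (SE, adjusted *P*=0.543 in edgeR).

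At both stages the mutant replicates with the high share of *Rn45s* had more *Msx1* than the other mutants. With only the replicates numbered 1 to 3, *Msx1* was called lower at E10.0 (log2 fold change -1.12, adjusted *P*=0.00201 in edgeR) and at E10.5 (-1.01, adjusted *P*=0.0207 in edgeR). For *Msx1as*, the wild-type values at E10.0 were 3.36, 5.42 and 9.31 CPM and the mutant values 3.37, 4.02, 3.44 and 4.33 CPM. At E10.5 they were 3.796, 5.68 and 4.64 CPM and 3.88, 3.40, 3.71 and 3.78 CPM. The genotypes overlapped for *Msx1as* at both stages. Even so, *Msx1as* was itself called lower in mutants at E10.0 (log2 fold change -0.67, adjusted *P*=0.0957 in edgeR). It was not called at E10.5 (log2 fold change -0.35, adjusted *P*=0.744 in edgeR). When the reads of *Msx1* and *Msx1as* were summed, an alternative chosen after seeing the data, the log2 fold change at E10.0 was again -0.67 and passed the threshold (adjusted *P*=0.0218 in edgeR). The sum was not called at E10.5 (log2 fold change -0.43).

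**Figure D2:**
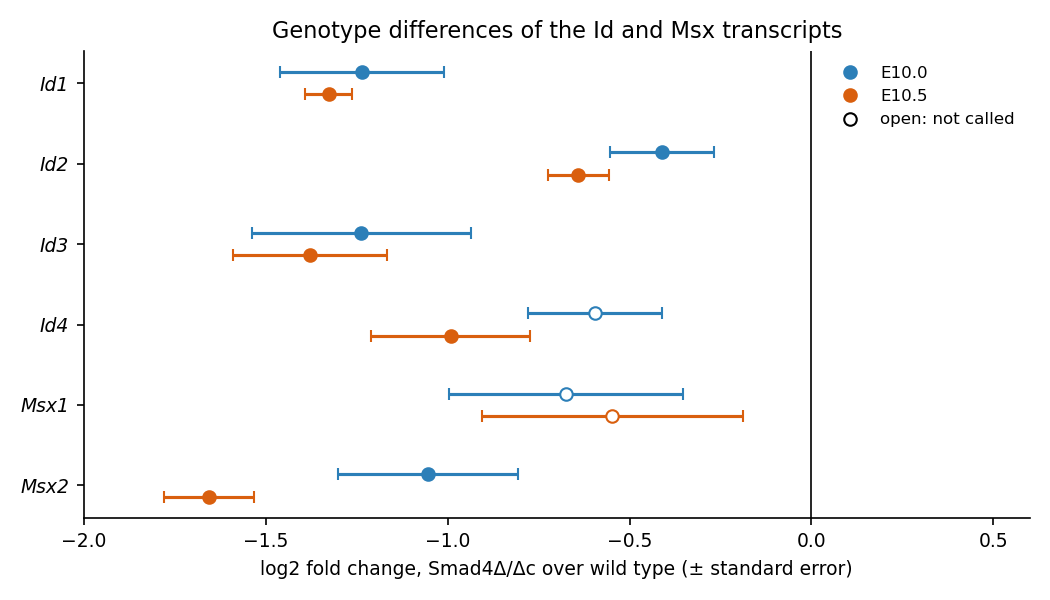
Log2 fold change of *Smad4*Δ/Δc over wild type at E10.0 and E10.5 for the 6 genes, with the standard error from 3 wild-type and 4 mutant embryos. Filled points were called DEGs (FDR≤0.1, fold change ≥1.2) and open points were not. All points lie below 0, from -0.41 for *Id2* at E10.0 to -1.66 for *Msx2* at E10.5.

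Levels of different genes were compared per kb of the longest coding transcript (GENCODE vM1, 1160 bases for *Id1* to 2456 for *Msx2*). The order *Id2*, *Id3*, *Id1*, *Msx2*, *Msx1*, *Id4* was found in all 14 samples. In wild type at E10.0, the levels were 118 ± 17.6, 64.95 ± 16.8, 34.6 ± 7.29, 17.8 ± 3.63, 3.12 ± 0.715 and 0.795 ± 0.126 CPM per kb in this order (SD, n=3). In mutants at E10.5 they were 71.7 ± 2.79, 17.4 ± 2.75, 12.0 ± 0.378, 5.12 ± 0.813, 1.13 ± 0.377 and 0.563 ± 0.117 CPM per kb (SD, n=4). Neighbours in the order had overlapping ranges in 2 cases, *Id3* and *Id1* in mutants at E10.0 and *Msx1* and *Id4* in wild type at E10.5. The level of *Msx1* leaves out the reads that could not be assigned.

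The make-up of the Id family is described here by the share of each transcript in their summed level. The summed Id level of wild-type buds was 218 ± 41.9 CPM per kb (SD, n=3) and that of mutants 132 ± 18.6 (SD, n=4) at E10.0. At the later stage these sums were 188 ± 14.5 and 102 ± 4.03 CPM per kb. *Id2* took 51.9% to 56.2% of it in wild type and 65.2% to 73.3% in mutants at E10.0. At E10.5 its share was 54.7% to 63.5% in wild type and 68.1% to 73.3% in mutants. The share of *Id1* was 15.3% to 16.4% in the 6 wild-type embryos and 10.3% to 12.6% in the 8 mutants. The share of *Id3* was 28.1% to 31.6% in wild type and 15.3% to 23.6% in mutants at E10.0, and 20.1% to 28.2% and 13.9% to 19.5% at E10.5. For these 3 genes the ranges of the genotypes did not overlap at either stage. In the reads alone, the ratio of *Id1* to *Id2* did not overlap either. It was 0.228 to 0.282 in wild type and 0.135 to 0.176 in mutants over both stages.

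**Figure D3:**
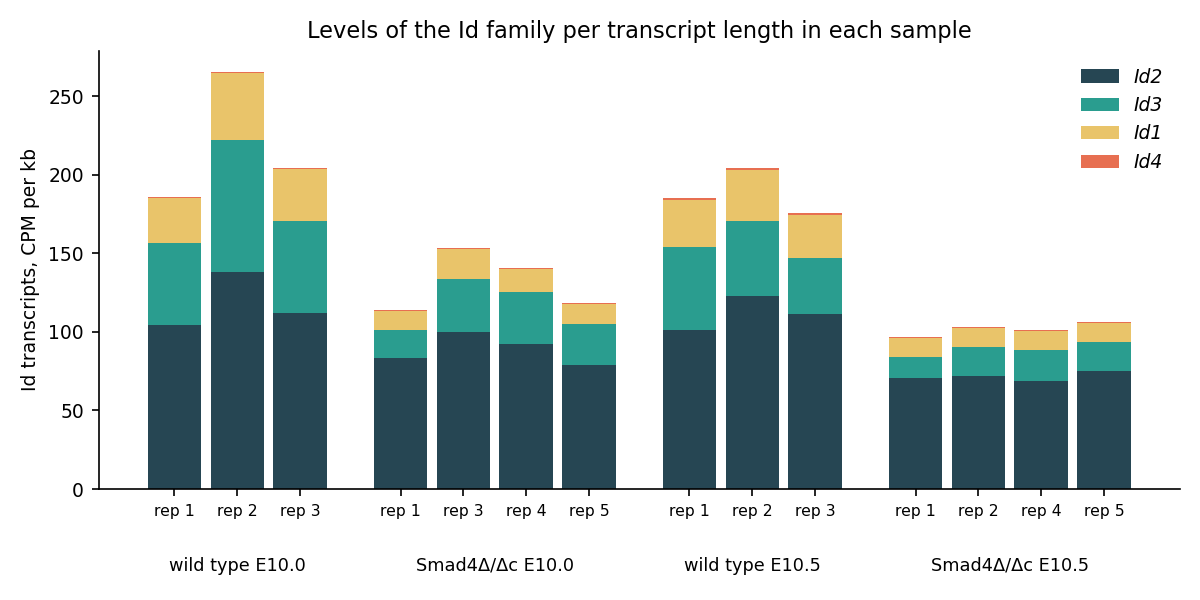
Levels of the 4 Id transcripts in each sample, in CPM per kb of coding transcript, stacked to their sum. Each bar is 1 embryo. The *Id2* portion shrinks less than the *Id3* and *Id1* portions in mutants, and *Id4* is a thin line at the top, under 1% of the sum in all samples.

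Between the stages, 1 of the 6 genes was called lower at E10.5 in wild type, against 4.74% of all genes, and 5 were not called. The called gene was *Msx1*, with 6.04 ± 1.38 CPM at E10.0 and 3.16 ± 0.989 CPM at E10.5 (SD, n=3 each), a log2 fold change of -0.93 ± 0.321 (SE, adjusted *P*=0.0388 in edgeR). This call was lost without wild-type replicate 2 or 3 of either stage (4 leave-one-out fits), and kept without wild-type replicate 1 of either stage. The remaining fits left out a mutant, which is not part of this comparison, and hardly moved the value. *Msx1* was also the only member whose stages did not overlap in wild type, a separation found in 20.4% of all genes. The log2 fold changes of the others were -0.20 for *Id1*, -0.08 for *Id2*, -0.52 for *Id3*, 0.53 for *Id4* and -0.15 for *Msx2*, and none was called. *Id3*, with an adjusted *P* of 0.115 in edgeR's exact test, was called in 5 of the 14 leave-one-out fits, which left out wild-type replicate 1 of either stage, mutant replicate 1 of either stage or mutant replicate 4 of E10.0. It was also called with only the replicates numbered 1 to 3 (adjusted *P*=0.0893 in edgeR).

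In mutants, 4 of the 6 genes were called lower at E10.5 than at E10.0, against 8.40% of all genes. *Msx2* fell from 21.1 ± 5.59 to 12.6 ± 1.998 CPM (SD, n=4 each), a log2 fold change of -0.75 ± 0.221 (SE, adjusted *P*=8.16e-05 in edgeR). With only the replicates numbered 1 to 3 it was -1.09. *Id3* fell by 0.66, *Id2* by 0.31 and *Msx1* by 0.81 on the log2 scale (adjusted *P*=0.00376, 0.0120 and 0.0232 in edgeR). *Id2* and *Msx2* were the 2 genes whose stages did not overlap, where 8.91% of all genes had no overlap. *Id2* was no longer called without mutant replicate 3 of E10.0 (log2 fold change -0.25), nor *Msx1* without mutant replicate 4 of E10.0 or mutant replicate 1 or 2 of E10.5. *Msx1* summed with *Msx1as* was not called either (log2 fold change -0.37). *Id1* had 17.0 CPM at E10.0 and 13.9 CPM at E10.5 and was not called (log2 fold change -0.29, adjusted *P*=0.139 in edgeR), but passed without mutant replicate 1 or 5 of E10.0.

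Whether the genotype difference itself changed between the stages was tested with a stage-by-genotype interaction term (quasi-likelihood method of edgeR). By this test 0 of the 6 genes were called, where 0.186% of all genes were, and 1 had an unadjusted *P* under 0.05. That gene was *Msx2*, with an interaction of -0.61 ± 0.277 on the log2 scale that did not pass after adjustment (SE, unadjusted *P*=0.0313 and adjusted *P*=0.797 by edgeR's quasi-likelihood method). With only the replicates numbered 1 to 3 the interaction of *Msx2* was -0.95 (adjusted *P*=0.461 by edgeR's quasi-likelihood method). DESeq2 called 0 of the 6 genes as well, with 1 at an unadjusted *P* under 0.05. The interactions of the other genes were -0.09 for *Id1*, -0.23 for *Id2*, -0.14 for *Id3*, -0.40 for *Id4* and 0.12 for *Msx1*, with standard errors of 0.165 to 0.481. The call of *Id4* at E10.5 alone is therefore not shown to be a difference between the stages.

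Levels of *Id1*, *Id2*, *Id3* and *Msx2* also varied together among embryos of a group. In wild type at E10.0, replicate 2 had the highest and replicate 1 the lowest level of all 6. Mutant replicate 3 was the highest of its group at E10.0 in 4 of them, *Id1*, *Id2*, *Id3* and *Msx2*. At E10.5, wild-type replicate 1 was the highest of its group for *Id3* and the lowest for *Id2*. Pearson's r was taken over the deviations of the 14 samples from their group means. It was 0.854 between *Id1* and *Id2* and between *Id1* and *Msx2*, and 0.753 between *Id1* and *Id3*. Other pairs of these genes had lower values, 0.722 for *Id2* and *Msx2*, 0.671 for *Id3* and *Msx2* and 0.536 for *Id2* and *Id3*. *Id4* had r of 0.25 with *Id1* and -0.002 with *Msx2*, and *Msx1* had its highest r, 0.735, with *Id3*. These values describe 14 libraries and share their normalization factors.

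**Figure D4:**
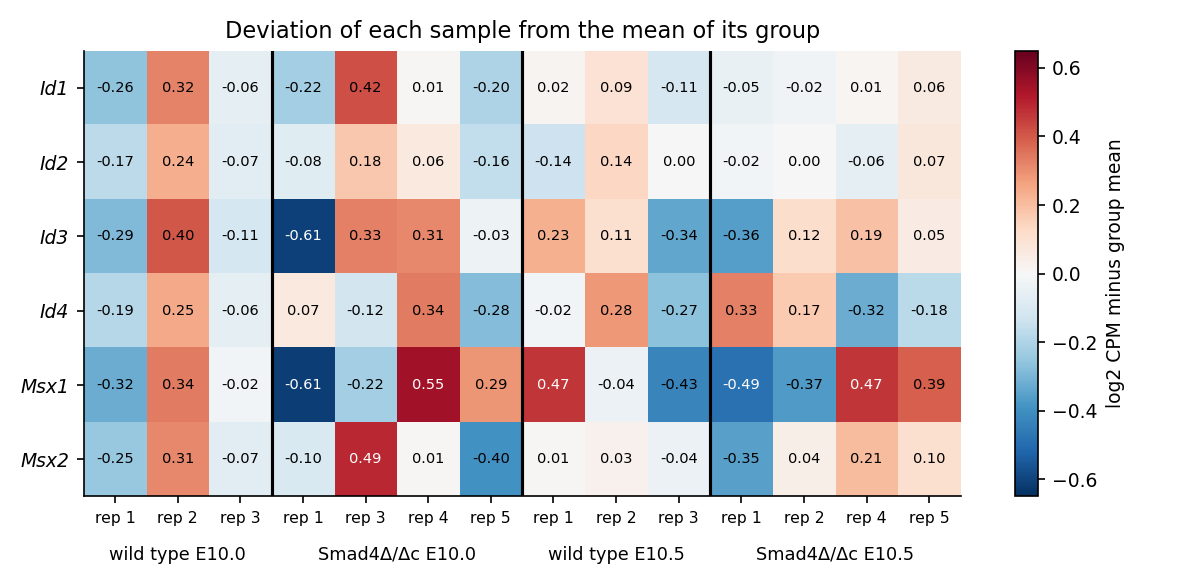
Deviation of each sample from the mean of its group, in log2 TMM-normalized CPM, for the 6 genes. Columns are single embryos, black lines separate the 4 groups, and red stands for above and blue for below the group mean. All 6 genes are high in wild-type replicate 2 and low in wild-type replicate 1 of E10.0, and *Msx1* is high in mutant replicates 4 and 5 of both stages.

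The genes with the most similar pattern over the 14 samples, by Pearson's r of log2(CPM + 1) among all genes tested, differed between the members. *Dkk1*, a secreted WNT antagonist, was the most similar to *Id1* (r=0.990). The mean level of *Dkk1* was 15.96 CPM (wild type) and 4.97 CPM (mutants) at E10.0, and 14.4 and 3.86 CPM at the later stage. Next to *Id1* came *Msx2* (0.965) and *Dync1i1* (0.964), a dynein subunit. *Id2* was most similar to *Msx2* (0.963), *Smad9* (0.951), a signal transducer of the BMP branch, and *Id1* (0.947). *Msx2* was most similar to *Id1*, *Id2* and *Dkk1* (0.962). For *Id3*, these were *Pkdcc* (0.977), a secreted kinase, *Cldn10* (0.967), a claudin, and *Snai1* (0.963), a transcriptional repressor. *Id4* had lower values, with *Inpp5a* (0.911), *Wdyhv1* (0.877) and *Tbx2* (0.863). *Msx1* was most similar to *Slc25a1* (0.979), the mitochondrial citrate carrier, *Mtx1* (0.976) and *Mif* (0.975).

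Of 13 other genes known to respond to BMP 12 were tested, and 6 were called lower and 0 higher in mutants at E10.0, the median log2 fold change being -0.47 against -0.02 over all genes. At E10.5, 10 of the 12 were lower and 0 higher, with a median of -0.55 against -0.01 over all genes. The quasi-likelihood test of edgeR called 5 and 8 of them lower, DESeq2 6 and 10, and both 0 higher. *Smad7*, an inhibitory SMAD, was lowered from 22.5 ± 1.35 to 15.8 ± 1.45 CPM at E10.0 (log2 fold change -0.51). *Tbx2*, a T-box repressor, fell by 0.79 (E10.0) and 1.01 (E10.5) on the log2 scale. *Smad9* was lowered from 3.29 ± 1.36 to 1.45 ± 0.345 CPM at E10.0 and from 2.03 ± 0.187 to 0.429 ± 0.0926 CPM at E10.5. *Grem1*, which encodes an antagonist of BMP ligands, had log2 fold changes of -1.22 and -1.09.

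Of the 6 BMP receptor genes, upstream of these responses, 0 were called at either stage by edgeR's exact test, with medians of 0.07 and -0.04. By the quasi-likelihood test and DESeq2 0 were called as well, and 0 had an unadjusted *P* under 0.05. Of the 3 genes for SMADs that the receptors phosphorylate, 1 (*Smad9*) was called lower at each stage. Among the 7 BMP ligands, 1 was called higher and 1 lower at E10.0, and 2 higher and 1 lower at E10.5. *Bmp4*, the ligand with a called increase at both stages, had 53.6 ± 2.87 CPM (wild type) and 69.7 ± 6.12 CPM (mutants) at E10.0, and 55.7 ± 2.15 and 70.6 ± 9.02 CPM at the later stage. *Bmp2* rose from 2.95 ± 0.477 to 5.54 ± 0.135 CPM at E10.5. Of 11 secreted BMP antagonists 7 were tested, and 2 were higher (*Smoc1* and *Smoc2*) and 2 lower (*Grem1* and *Fstl1*) at both stages. *Fstl1* was near the threshold at E10.5 (log2 fold change -0.29, adjusted *P*=0.0638 in edgeR). The quasi-likelihood test called 1 antagonist lower at E10.5 and DESeq2 2, and both called 2 higher.

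Among 13 bHLH factors that ID proteins can bind or whose partners they bind, 11 were tested. At each stage 3 were called higher and 1 lower in mutants, with medians of 0.40 (E10.0) and 0.09 (E10.5). The quasi-likelihood test of edgeR called 2 higher and 1 lower at each stage. DESeq2 called 4 higher at E10.0 and 3 at E10.5, with 1 lower at each. *Tcf4*, an E protein gene, rose from 252 ± 14.4 to 331.5 ± 34.6 CPM at E10.0 and from 314 ± 23.4 to 436 ± 37.4 CPM at E10.5. *Twist1*, required for limb bud mesenchyme, was the gene called lower (log2 fold changes -0.34 and -0.36). *Scx*, a marker of tendon progenitors, rose from 8.71 ± 1.04 to 15.5 ± 2.68 CPM at E10.5, and *Myf5*, expressed in muscle precursors, from 0.579 ± 0.190 to 1.40 ± 0.462 CPM at E10.0. Of 12 homeobox genes related to or co-expressed with *Msx1* and *Msx2*, 10 were tested, and 3 were called lower at E10.0 and 4 at E10.5, with 0 higher. *Prrx2* was among them with log2 fold changes of -1.01 and -0.83, and *Alx4* with -0.36 and -0.45.

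Markers of other cell types that can express Id and Msx genes were measured beside these results. The 11 markers of ectoderm and ridge, where *Smad4* is not inactivated, summed to 314 to 392.3 CPM (wild type) and 250 to 360 CPM (mutants) at E10.0, and to 299 to 317 and 216 to 307 CPM at E10.5. Among them 1 gene, *Krt5*, was called lower at the earlier stage and 0 at the later one. The 9 endothelial markers, of a cell type rich in *Id1* and *Id3*, summed to 316.5 to 363 CPM (wild type) and 339.5 to 397 CPM (mutants) at E10.0, and to 317 to 338 and 333 to 386 CPM at E10.5. Of these 1, *Esam*, was called lower at E10.0 and 0 were called at E10.5. DESeq2 instead called 2 higher and 0 lower at E10.0. The 6 macrophage markers summed to 3.21 to 7.53 and 8.535 to 10.9 CPM at E10.0 and to 14.8 to 18.3 and 17.0 to 27.4 CPM at E10.5, with 3 of them called higher at E10.0. The 4 mesothelial markers summed to 1.63 to 3.17 CPM (wild type) and 8.58 to 18.9 CPM (mutants) at E10.0, and to 4.13 to 6.76 and 1.498 to 4.04 CPM at E10.5. Of the 3 mesothelial markers tested, 2 were called higher at E10.0 and 2 lower at the later stage. The 4 muscle precursor markers summed to 80.0 to 95.2 and 82.2 to 108 CPM at E10.0 and to 90.35 to 102 and 74.5 to 101 CPM at E10.5. Among these, 1 (*Myf5*) was called higher at E10.0 and 0 were called at E10.5. The 4 markers of neural crest and Schwann precursors summed to 11.2 to 13.3 and 11.1 to 11.4 CPM at E10.0, and to 13.7 to 15.99 and 10.9 to 15.0 CPM at E10.5. Only 1 of them, *Erbb3*, was tested, and it was called lower at E10.5 (log2 fold change -0.42) and not at E10.0. The 7 erythroid markers, of which *Hba-a1* had 0 reads in all samples, summed to 2805 to 3716 and 2653 to 4932 CPM at E10.0 and to 3674 to 5096 and 2766 to 3910 CPM at E10.5. The part of any of these cell types in the levels of the Id and Msx genes was not tested.

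**Figure D5:**
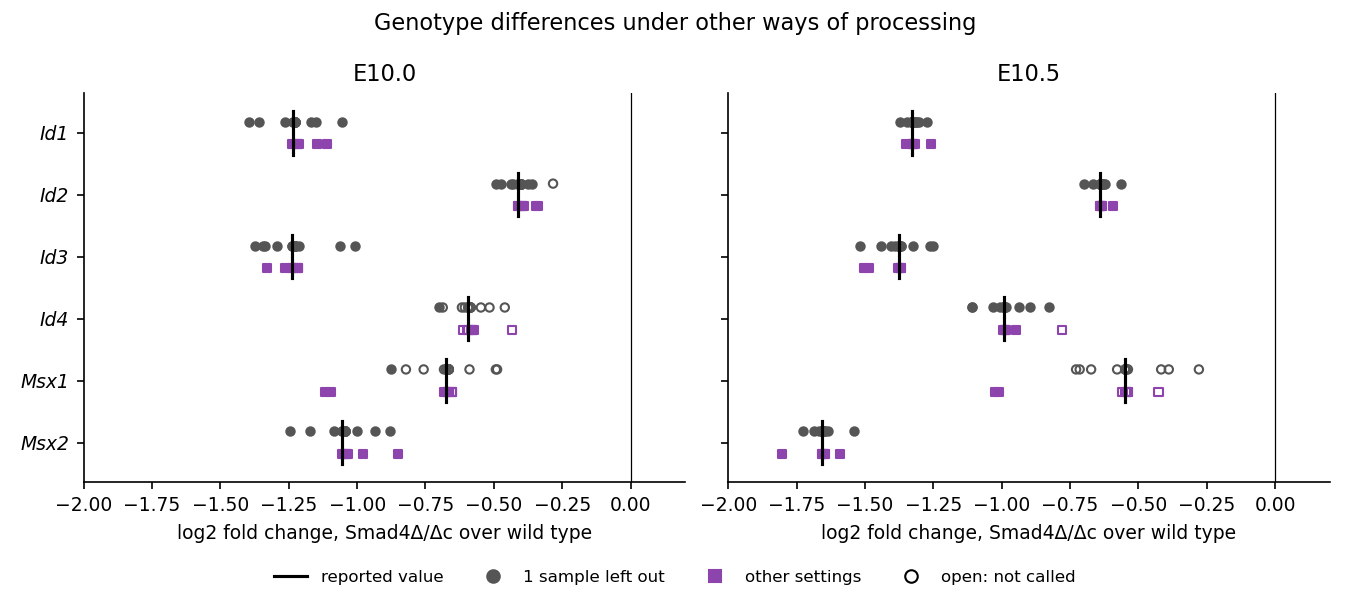
Log2 fold change of *Smad4*Δ/Δc over wild type at E10.0 and E10.5 under each alternative. Vertical lines are the reported values, circles are fits that left out 1 of the 14 samples, squares are the other settings, and open symbols were not called. *Id1*, *Id3* and *Msx2* were called under every setting shown at both stages, *Id2* in all but 1 at E10.0, and *Msx1* ranges from -1.12 to -0.49 at E10.0 and from -1.02 to -0.28 at E10.5.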

How the data were processed

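RNA-seq of forelimb bud pairs covered 14 embryos in 4 groups, as GEO's labels give them. The authors aligned 50-cycle single-end reads to mm9 with TopHat2 2.0.13 and counted uniquely mapped reads per gene with HTSeq, without regard to strand, and the deposited values were raw counts. Here, 1041 symbols of chromosomes M, X and Y were removed, leaving 12393 genes at or above 1 CPM in 3 or more samples for edgeR 4.0.16 (TMM, tag-wise dispersions over all 14 samples, prior of 10 degrees of freedom, exact test with Benjamini-Hochberg adjustment, FDR of at most 0.1 and fold change of at least 1.2). The interaction was tested by edgeR's quasi-likelihood test. Standard errors come from the replicate variances of log2 CPM. DESeq2 1.42.0 was an alternative, and the tests were tried on simulated data. The genes and lists were chosen with earlier results of these data known. Of each list, up to 4 called genes with the smallest *P* could be named, and for each member the 3 genes with the highest Pearson's r. *Id4* and *Msx1* had the fewest reads. R 4.3.3, Python 3.11.15 and matplotlib 3.10.9 were used.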

Additional observations from a re-analysis of the deposited data

How the results depend on the processing

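Under the alternatives, the number of members called lower in mutants ranged from 3 to 6 at E10.0 (reported 4). At E10.5 it ranged from 5 to 6 (reported 5). The number called lower at E10.5 than at E10.0 in mutants ranged from 3 to 5 (reported 4). In wild type, where 1 member was called lower at E10.5, 2 were called when the compared groups were fitted apart or when only the replicates numbered 1 to 3 were used, and 0 to 2 when 1 sample was left out. Same-numbered samples deviated with a mean correlation of -0.0814 (4 pairs, -0.26 to 0.174) and others with 0.016 (20 pairs, -0.316 to 0.377). The 4 values lay within the range of the others, and so few pairs cannot show whether the replicate numbers pair the samples. When the number was used as a replicate block in edgeR's quasi-likelihood fit, *Msx1* was called at both stages. The log2 fold changes were -1.10 (E10.0) and -1.02 (E10.5) (adjusted *P*=0.0267 and 0.0780, edgeR's quasi-likelihood test). Numbers 4 and 5 occurred only among mutants, so that within a number the genotypes were compared only for numbers 1 to 3. This fit is thus close to the setting with only the replicates numbered 1 to 3. Signs changed only among values that were not called. With 1 sample left out, the stage difference in wild type ranged from -0.16 to 0.050 for *Id2* and from -0.26 to 0.026 for *Msx2*, and the interaction from -0.27 to 0.069 for *Id1* and from -0.067 to 0.38 for *Msx1*. For comparisons of 2 groups, many leave-one-out fits left out a sample of neither group, and these say little about stability. The log2 fold change of *Id1* at E10.0, for example, was -1.23 in every fit without 1 E10.5 sample. With such fits included, of 653 recomputed values of single members, 617 kept their direction and their side of the threshold, 16 passed it and 11 lost it. The cause was not tested. Depth limits *Id4*, at 25 to 116 reads per embryo.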
